A study of Mus musculus with 11 samples.

Results

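Cholesterol and fatty acid synthesis were followed here through 34 mouse genes, comprising the enzymes of both pathways, a sterol carrier and the proteins that regulate them. The genes were chosen by name, with earlier results of these data known. A gene was measured when the annotation of the array gave its current or older symbol as the only symbol of a probe set, a group of probes summarised to 1 value. This held for 33 of the 34 genes, out of 19937 genes with such a probe set, and all 33 were among the 16147 genes that passed the filter on low values. Acat2, which codes for a cytosolic acetoacetyl-CoA thiolase, had no probe set of its own. The measured genes comprised 18 of the 19 genes of the sterol branch, all 5 regulators and all 10 genes of the fatty acid branch.

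Cells build cholesterol from acetyl-CoA through mevalonate, farnesyl diphosphate, squalene and lanosterol, and build fatty acids from the same acetyl-CoA through malonyl-CoA and palmitate, which is then elongated and desaturated. Both pathways are controlled by the sterol regulatory element-binding proteins (SREBPs), membrane-bound transcription factors that SCAP escorts from the endoplasmic reticulum to the Golgi for cleavage when sterols are scarce, while INSIG proteins hold the complex back when sterols are plentiful. SREBP-2 acts mainly on sterol genes and SREBP-1c mainly on fatty acid genes. In mammalian cells p53 has been described as a restraint on lipid synthesis.

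The cells were mouse embryonic fibroblasts (MEFs), named MEF LSL in the labels, of C57BL/6 x 129/SvJ background. Both copies of their p53 gene are p53LSL alleles, with a stop cassette that Cre removes, and all 11 samples received AdenoCre virus for 24 h at a moi of 5 and later 150 nM doxorubicin, a DNA-damaging drug, for 12 h. In between they were transfected with p53 siRNA (3 arrays), control siRNA (3 arrays), antisense oligonucleotides (ASO) against Pint, a long intergenic non-coding RNA (3 arrays), or control ASO (2 arrays). The comparisons therefore ask what lowering p53 or Pint does in cells with restored and activated p53, and hold no undamaged or p53-null cells. The Pint ASO was a pool, so that effects of single oligonucleotides were not separable.

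Values are log2 intensities, without read depth. Array medians lay between 7.31 and 7.38, and arrays of 1 group correlated at 0.991 to 0.995, those of different groups at 0.971 to 0.991. Lncpint, the gene of Pint, ranged over 8.48 to 8.60 in Pint ASO arrays and 10.23 to 10.41 in control ASO arrays. It was also lower with p53 siRNA, at 9.02 to 9.13 against 9.43 to 9.88 with control siRNA (-0.54, adjusted p = 0.00673), and its level in control ASO exceeded that in control siRNA by 0.71 (adjusted p = 0.0137). The p53 transcript was not analysed here. All 10 fibroblast markers were above the filter of 6 in every array. So were 7 of 10 adipocyte markers, among them Pparg (8.57 to 9.06), Fabp4 (7.79 to 8.57) and Lpl (7.22 to 9.15), while Adipoq and Cd36 stayed at or under 5.25 and 4.66. The same held for 4 of 5 epithelial markers (Cdh1 at 7.47 to 8.67, Epcam at 5.52 to 5.94) and all 5 endothelial markers (Pecam1 at 6.42 to 6.92). Of the macrophage and blood list 2 of 5 were above it, Cd68 (9.35 to 10.49) and Csf1r (up to 7.19), with Ptprc and Adgre1 at most 5.88 and 5.20, and of the 4 measured hepatocyte markers 1, Apoa1 (7.24 to 8.15), with Alb at most 5.88.

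Genes of both branches were higher with p53 siRNA and lower with Pint ASO. With p53 siRNA, 15 of the 18 sterol genes and 8 of the 10 fatty acid genes rose and none fell, while 10.6% of all genes tested were called higher and 10.6% lower. With Pint ASO, 12 of the 18 sterol genes and 5 of the 10 fatty acid genes fell and none rose, against 13.9% of all genes called lower and 11.3% called higher. A call is a Benjamini-Hochberg adjusted p under 0.05 in limma over all probe sets. The median log2 fold change of the sterol branch was 0.46 with p53 siRNA and -0.28 with Pint ASO, and that of the fatty acid branch 0.25 and -0.18. Over all genes these medians were 0.02 and 0.01. The sterol branch thus had the larger median in each knockdown, but single genes of the branches overlapped over most of their ranges, and the difference between the branches was not tested.

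**Figure D1:**
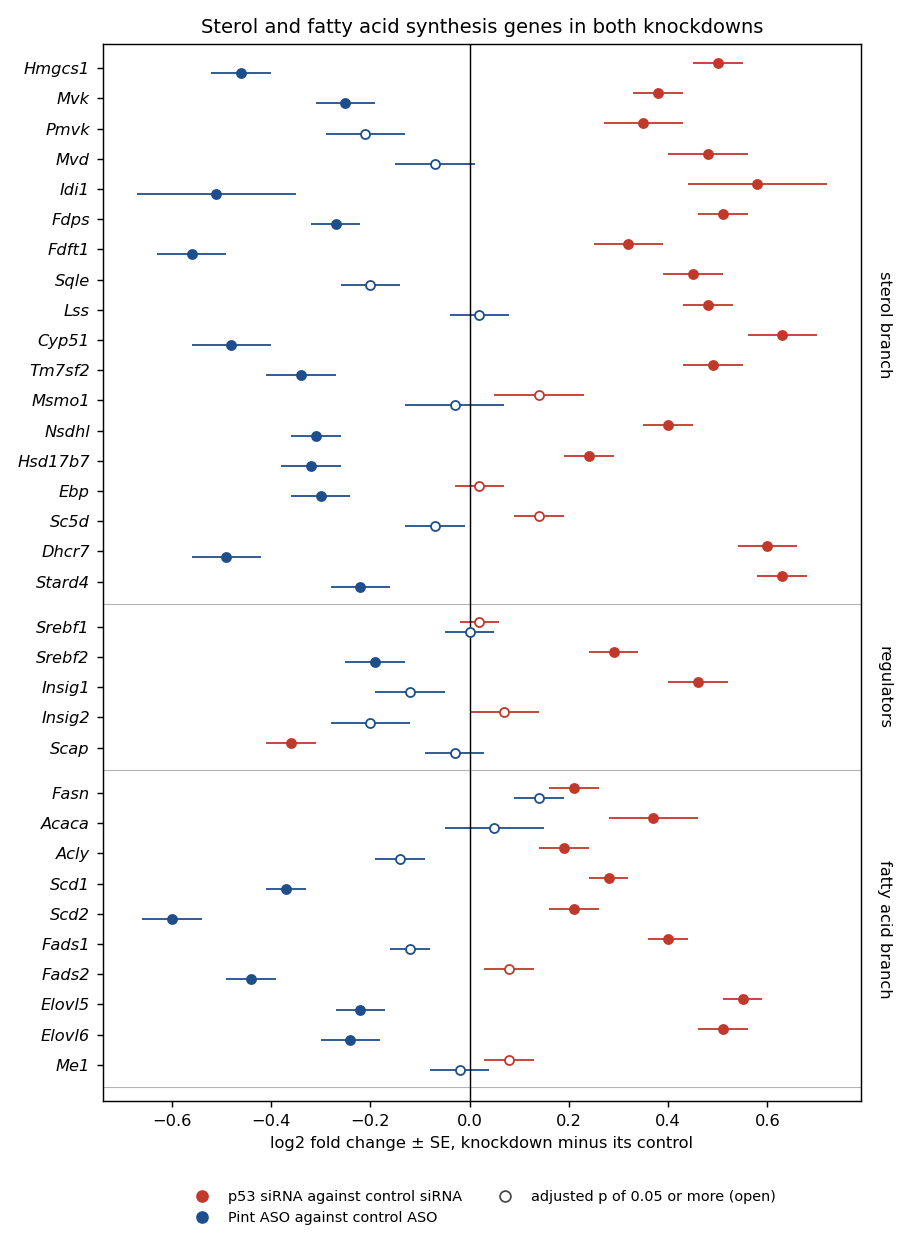
Log2 fold change with its standard error (horizontal axis) of the 33 measured genes (rows, by branch) for p53 siRNA against control siRNA (red) and Pint ASO against control ASO (blue); open symbols did not pass the test. Most red points lie right of 0 and most blue points left of it, with Scap as the only gene that fell with p53 siRNA (-0.36).

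Averaged per array after each gene was set relative to its own mean over the 11 arrays, the sterol branch lay at 0.37, 0.44 and 0.43 in p53 siRNA arrays, against 0.02, -0.02 and 0.02 in control siRNA arrays. It lay at -0.37, -0.34 and -0.38 in Pint ASO arrays, against -0.06 and -0.11 in control ASO arrays. The fatty acid branch lay at 0.27, 0.28 and 0.26 in p53 siRNA arrays, against -0.03, -0.04 and 0.01 in control siRNA arrays. In Pint ASO arrays it lay at -0.25, -0.20 and -0.24, against -0.01 and -0.05 in control ASO arrays. In both branches every p53 siRNA array stood above and every Pint ASO array below all control arrays. The 10 fibroblast markers moved the same way: 7 rose with p53 siRNA and 9 fell with Pint ASO, their array means being 12.29 to 12.31 with p53 siRNA, 11.94 to 11.99 with control siRNA, 11.27 to 11.33 with Pint ASO and 11.83 to 11.84 with control ASO. Of 7 tested adipocyte markers, Pparg and Lpl rose with p53 siRNA (0.21 and 0.86), and with Pint ASO Lpl fell (-0.51) and Cebpa rose (0.36). The array means of the 10 listed adipocyte markers were 6.99 to 7.05 with p53 siRNA, 6.88 to 6.94 with control siRNA, 6.86 to 6.89 with Pint ASO and 6.80 to 6.91 with control ASO. The part of either list in the result was not tested.

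**Figure D2:**
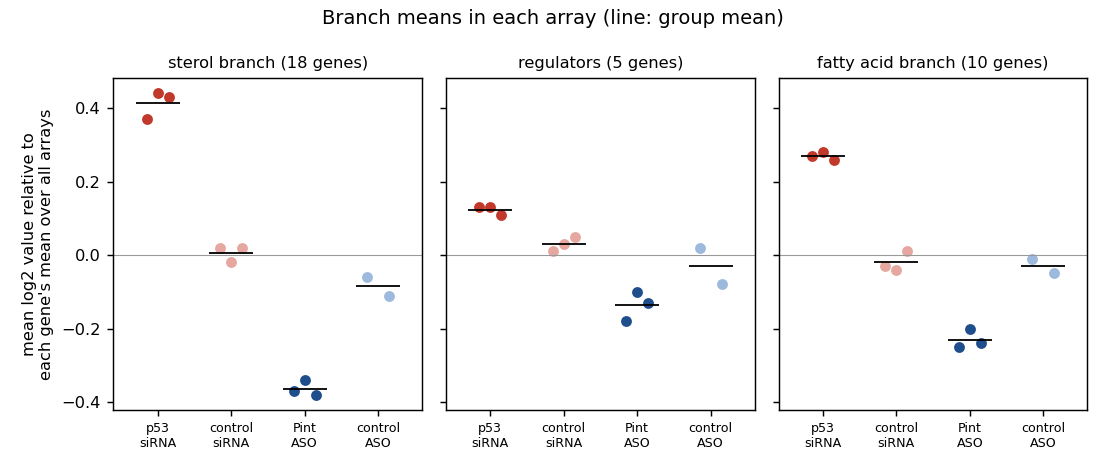
Mean log2 value of the genes of each branch relative to each gene's mean over all arrays (vertical axis), by array (points) and group (horizontal axis), with the group mean as a line. Sterol means run from -0.38 to 0.44 and fatty acid means from -0.25 to 0.28, with the control arrays of both arms between the knockdowns.

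The 6 measured enzymes from acetoacetyl-CoA to farnesyl diphosphate all rose with p53 siRNA, by 0.35 to 0.58. Hmgcs1, the cytosolic HMG-CoA synthase, acts first among these 6. It had log2 values of 11.05, 11.08 and 11.09 in p53 siRNA arrays, against 10.64, 10.54 and 10.54 in control siRNA arrays. In Pint ASO arrays it had 9.97, 10.00 and 9.89, against 10.45 and 10.38 in control ASO arrays. Neither pair of groups overlapped, and the changes were 0.50 (SE 0.05, adjusted p = 0.000116) and -0.46 (SE 0.06, adjusted p = 0.000491), a 1.41-fold level with p53 siRNA and a 0.73-fold level with Pint ASO. Fdps, the farnesyl diphosphate synthase, had 11.64, 11.70 and 11.69 with p53 siRNA, against 11.11, 11.19 and 11.18 with control siRNA, a change of 0.51 (SE 0.05, adjusted p = 5.80e-05). With Pint ASO it had 10.66, 10.70 and 10.75, against 10.94 and 11.02 with control ASO, a change of -0.27 (SE 0.05, adjusted p = 0.0053). The Fdps groups did not overlap in either comparison, with every p53 siRNA array above and every Pint ASO array below its controls.

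Idi1, the isomerase of isopentenyl diphosphate, spread more between replicates. Its values were 10.57, 10.74 and 10.61 with p53 siRNA, against 10.16, 9.97 and 10.06 with control siRNA, and 9.60, 9.39 and 9.08 with Pint ASO, against 10.08 and 9.67 with control ASO. The changes were 0.58 (SE 0.14, adjusted p = 0.019) and -0.51 (SE 0.16, adjusted p = 0.0466). Neither is firm. The p53 siRNA call was lost without control siRNA replicate 2 or 3 or p53 siRNA replicate 2 or 3 (adjusted p = 0.0667, 0.0561, 0.0678 and 0.0501), and the Pint ASO call stood in 2 of 11 fits that left out 1 array, with an adjusted p of up to 0.317 without control ASO replicate 1. A second probe set named Idi1 gave 0.57 (adjusted p = 0.0231) and -0.22 (adjusted p = 0.413). Mvk, the mevalonate kinase, rose by 0.38 with p53 siRNA and changed by -0.25 with Pint ASO (adjusted p = 0.0138), and this call was lost without control ASO replicate 2 (adjusted p = 0.0994). Pmvk and Mvd, the phosphomevalonate kinase and the diphosphomevalonate decarboxylase, rose with p53 siRNA by 0.35 and 0.48. With Pint ASO they changed by -0.21 (adjusted p = 0.123) and -0.07 (adjusted p = 0.644) and did not pass the test.

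Of the 3 enzymes that make squalene and close it to lanosterol, all rose with p53 siRNA and 1 fell with Pint ASO. Fdft1, the squalene synthase, had 12.13, 12.26 and 12.20 with p53 siRNA, against 11.91, 11.77 and 11.94 with control siRNA, a change of 0.32 (SE 0.07, adjusted p = 0.00828). The Pint ASO arrays had 11.25, 11.41 and 11.26, against 11.87 and 11.85 with control ASO. That change of -0.56 (SE 0.07, adjusted p = 0.000844) was the most negative of the sterol branch, and a second Fdft1 probe set gave -0.46 (adjusted p = 0.00232). Sqle, the squalene epoxidase, rose by 0.45 with p53 siRNA, and its change with Pint ASO was -0.20 (SE 0.06, adjusted p = 0.0569). That change passed the test when quantile normalization was applied again (adjusted p = 0.0257), with a mean-variance trend (adjusted p = 0.0307) and without control ASO replicate 2 (-0.30, adjusted p = 0.0177). Lss, the lanosterol synthase, had 10.51, 10.47 and 10.35 with p53 siRNA, against 9.95, 9.99 and 9.96 with control siRNA. Its Pint ASO arrays had 9.97, 10.07 and 9.97, against 10.00 and 9.96 with control ASO. Lss therefore rose with p53 siRNA by 0.48 (SE 0.05, adjusted p = 0.000243), while its ASO groups overlapped and differed by 0.02 (SE 0.06, adjusted p = 0.837).

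Among the 8 enzymes that turn lanosterol into cholesterol, 5 rose with p53 siRNA and 6 fell with Pint ASO. Cyp51, the lanosterol 14-alpha-demethylase, had 10.00, 10.07 and 10.11 with p53 siRNA, against 9.44, 9.39 and 9.47 with control siRNA. Its values with Pint ASO were 8.87, 8.80 and 8.68, against 9.37 and 9.16 with control ASO. It rose 1.55-fold with p53 siRNA (log2 change 0.63, SE 0.07, adjusted p = 0.000265) and had a 0.72-fold level with Pint ASO (-0.48, SE 0.08, adjusted p = 0.00283). Dhcr7, the 7-dehydrocholesterol reductase, had 9.41, 9.39 and 9.33 with p53 siRNA, against 8.86, 8.78 and 8.71 with control siRNA, and 8.22, 8.36 and 8.44 with Pint ASO, against 8.86 and 8.80 with control ASO. Its changes were 0.60 (SE 0.06, adjusted p = 0.000195) and -0.49 (SE 0.07, adjusted p = 0.00151). The groups of both genes were separated in each comparison.

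Ebp, Msmo1 and Sc5d differed from that pattern. The sterol isomerase gene Ebp had 9.95, 10.03 and 10.08 with p53 siRNA, against 10.00, 9.95 and 10.04 with control siRNA, and these groups overlapped (0.02, SE 0.05, adjusted p = 0.817). With Pint ASO it had 9.35, 9.44 and 9.44, against 9.74 and 9.67 with control ASO, a change of -0.30 (SE 0.06, adjusted p = 0.00661) that was lost without control ASO replicate 1 (adjusted p = 0.0535). Msmo1 and Sc5d, the C-4 methylsterol oxidase and the sterol C5-desaturase, passed the test in neither knockdown, with 0.14 each for p53 siRNA (adjusted p = 0.375 and 0.13, and 0.0444 for Sc5d without p53 siRNA replicate 1) and -0.03 and -0.07 for Pint ASO (adjusted p = 0.864 and 0.513). The reductase gene Tm7sf2 and the dehydrogenase genes Nsdhl and Hsd17b7 rose with p53 siRNA by 0.49, 0.40 and 0.24, and changed by -0.34, -0.31 and -0.32 with Pint ASO. These ASO calls held in all 11 fits that left out 1 array for Nsdhl and Hsd17b7, and Tm7sf2 lost its call without control ASO replicate 2 (adjusted p = 0.0513). Stard4, a carrier of cholesterol between membranes, had 9.36, 9.45 and 9.44 with p53 siRNA, against 8.78, 8.70 and 8.86 with control siRNA, a rise of 0.63 (SE 0.05, adjusted p = 3.32e-05). With Pint ASO it had 8.45, 8.43 and 8.48, against 8.66 and 8.68 with control ASO. That change of -0.22 (adjusted p = 0.0253) was lost without either control ASO array (adjusted p = 0.089 and 0.102) and without Pint ASO replicate 1 or 2 (adjusted p = 0.0647 and 0.0633).

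**Figure D3:**
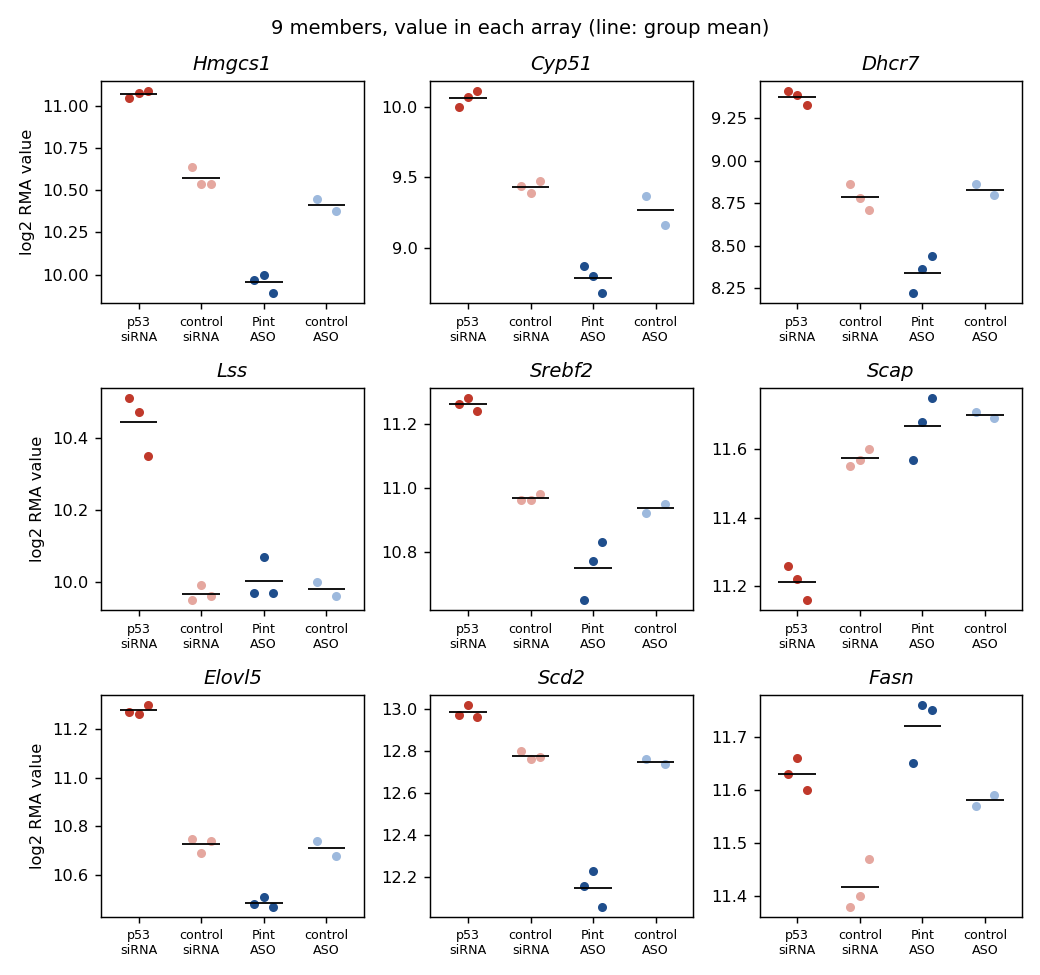
Log2 RMA value (vertical axis, own scale per gene and not starting at 0) of 9 members in each array (points) of the 4 groups (horizontal axis), with group means as lines. Hmgcs1, Cyp51, Dhcr7 and Elovl5 are high with p53 siRNA and low with Pint ASO, Lss is high with p53 siRNA and near its control with Pint ASO, Scap falls to 11.16 to 11.26 with p53 siRNA, and Fasn lies above its own control in both arms, without passing the test in the ASO arm.

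The regulators did not move as a group. Srebf2, which codes for SREBP-2, had 11.26, 11.28 and 11.24 with p53 siRNA, against 10.96, 10.96 and 10.98 with control siRNA, and rose by 0.29 (SE 0.05, adjusted p = 0.00346). With Pint ASO it had 10.65, 10.77 and 10.83, against 10.92 and 10.95 with control ASO. The groups did not overlap, but the change of -0.19 (SE 0.06, adjusted p = 0.0439) stood in 1 of 11 fits that left out 1 array, and its adjusted p reached 0.154 without control ASO replicate 2. Srebf1, which codes for both SREBP-1 forms, had 10.09, 10.07 and 10.04 with p53 siRNA, against 10.02, 10.10 and 10.02 with control siRNA. In the ASO arm it had 9.94, 10.02 and 10.00 with Pint ASO, against 9.97 and 10.00 with control ASO. Its groups overlapped in both arms, with changes of 0.02 (SE 0.04) and 0.00 (SE 0.05).

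Insig1, an endoplasmic reticulum anchor of the SCAP complex that SREBPs also induce, had 10.95, 10.95 and 10.99 with p53 siRNA, against 10.51, 10.45 and 10.54 with control siRNA, a rise of 0.46 (SE 0.06, adjusted p = 0.000768). The ASO arm had 10.18, 10.23 and 10.15 with Pint ASO, against 10.43 and 10.19 with control ASO. These groups overlapped, since the second control array lay among the Pint ASO arrays, and the change of -0.12 did not pass the test (adjusted p = 0.303), though it did without that array (-0.24, adjusted p = 0.0422). The related anchor gene Insig2 changed by 0.07 with p53 siRNA (adjusted p = 0.577) and by -0.20 with Pint ASO (adjusted p = 0.123), and the second change also passed without control ASO replicate 2 (-0.33, adjusted p = 0.0208). Scap, the escort itself, went the other way. It had 11.26, 11.22 and 11.16 with p53 siRNA, against 11.55, 11.57 and 11.60 with control siRNA, and fell by 0.36 on the log2 scale (SE 0.05, adjusted p = 0.00146). In the ASO arm it had 11.57, 11.68 and 11.75 with Pint ASO, against 11.71 and 11.69 with control ASO, which overlapped (-0.03, SE 0.06).

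In the fatty acid branch, the genes that supply acetyl-CoA and NADPH and build palmitate had medians of 0.20 with p53 siRNA and 0.01 with Pint ASO. Of these 4, 3 rose with p53 siRNA and none passed the test with Pint ASO. Fasn, the fatty acid synthase, had 11.63, 11.66 and 11.60 with p53 siRNA, against 11.38, 11.40 and 11.47 with control siRNA, a change of 0.21 (SE 0.05, adjusted p = 0.0127). In the ASO arm it had 11.65, 11.76 and 11.75 with Pint ASO, against 11.57 and 11.59 with control ASO. All Pint ASO arrays were thus above their controls, by 0.14 (SE 0.05, adjusted p = 0.0915), and this passed the test when quantile normalization was applied again (0.18, adjusted p = 0.0373) or with a mean-variance trend (adjusted p = 0.0392). Acaca, the acetyl-CoA carboxylase 1 gene, had a change of 0.37 with p53 siRNA (adjusted p = 0.0167), while its second probe set gave 0.22 (adjusted p = 0.152). Acly, the ATP citrate lyase, changed by 0.19 (adjusted p = 0.0169), and Me1, the malic enzyme, by 0.08 (adjusted p = 0.367). With Pint ASO, Acaca, Acly and Me1 changed by 0.05, -0.14 and -0.02.

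These p53 siRNA calls were marginal. Fasn lost its call without control siRNA replicate 1 (adjusted p = 0.056) or p53 siRNA replicate 2 (adjusted p = 0.0515). Acaca lost it without control siRNA replicate 1 or 2 or p53 siRNA replicate 1 or 2 (adjusted p = 0.0565 to 0.0611), and Acly without control siRNA replicate 1 or 2 or p53 siRNA replicate 1 or 3 (adjusted p = 0.0521 to 0.0626). Of the 10 fatty acid genes, 5 were called when control siRNA replicate 1, control siRNA replicate 2 or p53 siRNA replicate 2 was left out.

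The 6 genes of elongation and desaturation had a median of 0.34 with p53 siRNA, where 5 rose, and of -0.31 with Pint ASO, where 5 fell. This grouping of the branch was made after its values were seen. Elovl5, an elongase of polyunsaturated fatty acids, had 11.27, 11.26 and 11.30 with p53 siRNA, against 10.75, 10.69 and 10.74 with control siRNA. It rose by 0.55 (SE 0.04, adjusted p = 2.02e-05). The ASO arm had 10.48, 10.51 and 10.47 with Pint ASO, against 10.74 and 10.68 with control ASO, and changed by -0.22 (adjusted p = 0.00828). Elovl6, the elongase of palmitate, had 11.02, 11.12 and 11.13 with p53 siRNA, against 10.53, 10.56 and 10.66 with control siRNA, a rise of 0.51 (SE 0.05, adjusted p = 0.000186). Its Pint ASO arrays had 10.24, 10.12 and 10.19, against 10.44 and 10.41 with control ASO, a change of -0.24 (adjusted p = 0.0214). Both elongases were separated from their controls in each comparison. The Pint ASO call of Elovl5 was lost without control ASO replicate 1 (adjusted p = 0.0627), and that of Elovl6 without control ASO replicate 1 or 2 or Pint ASO replicate 2 (adjusted p = 0.105, 0.0707 and 0.0593).

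The stearoyl-CoA desaturase genes Scd1 and Scd2, whose products place the first double bond, had changes larger in size with Pint ASO than with p53 siRNA, although that difference in size was not tested. Scd2 had 12.16, 12.23 and 12.06 with Pint ASO, against 12.76 and 12.74 with control ASO, a 0.66-fold level (log2 change -0.60, SE 0.06, adjusted p = 0.000141). With p53 siRNA it had 12.97, 13.02 and 12.96, against 12.80, 12.76 and 12.77 with control siRNA. This change of 0.21 (adjusted p = 0.0205) was lost without control siRNA replicate 2 or 3 or p53 siRNA replicate 2 (adjusted p = 0.0645, 0.0659 and 0.0742). Scd1 had 12.14, 12.12 and 12.17 with Pint ASO, against 12.49 and 12.55 with control ASO (-0.37, SE 0.04, adjusted p = 0.000497). It had 12.82, 12.82 and 12.84 with p53 siRNA, against 12.56, 12.51 and 12.56 with control siRNA (0.28, SE 0.04, adjusted p = 0.00104). The groups of both desaturase genes were separated in each comparison.

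Fads1 and Fads2, the delta-5 and delta-6 desaturases of polyunsaturated fatty acids, each passed the test in 1 knockdown. Fads1 had 12.02, 12.06 and 12.04 with p53 siRNA, against 11.64, 11.65 and 11.63 with control siRNA, and rose by 0.40 (SE 0.04, adjusted p = 0.000127). With Pint ASO it had 11.48, 11.49 and 11.56, against 11.66 and 11.61 with control ASO, a change of -0.12 that did not pass (adjusted p = 0.0872). Fads2 had 11.47, 11.51 and 11.58 with Pint ASO, against 11.93 and 11.99 with control ASO, and fell by 0.44 (SE 0.05, adjusted p = 0.000425). With p53 siRNA it had 12.01, 12.07 and 12.09, against 12.00, 11.95 and 11.98 with control siRNA, a change of 0.08 that did not pass (adjusted p = 0.293).

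**Figure D4:**
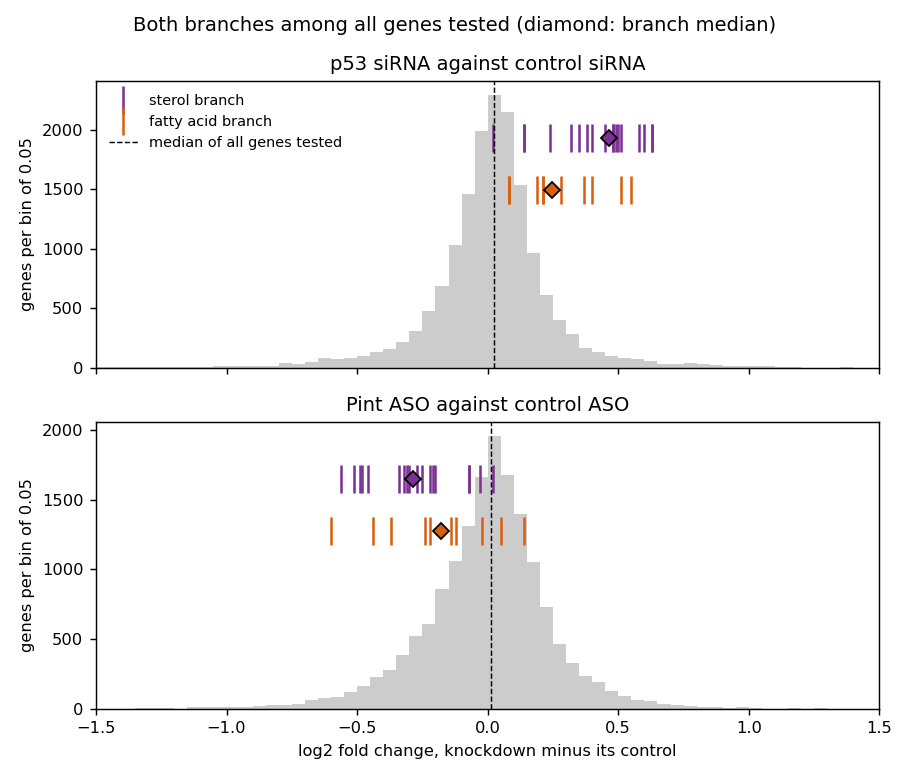
Number of genes (vertical axis) by log2 fold change (horizontal axis) over all 16147 genes tested (grey), with each sterol gene (purple ticks) and fatty acid gene (orange ticks), the branch medians (diamonds) and the median of all genes (dashed line); the axis ends at -1.5 and 1.5. Branch medians are 0.46 and 0.25 with p53 siRNA and -0.28 and -0.18 with Pint ASO.

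In all, 16 of the 33 genes were called higher with p53 siRNA and lower with Pint ASO, against 3.28% of all genes tested. They were 11 sterol genes, Srebf2 and the 4 fatty acid genes Scd1, Scd2, Elovl5 and Elovl6. The pattern was not particular to these pathways, since 7 of the 10 fibroblast markers were called in the same 2 directions. The knockdowns have separate controls, and the difference between their effects was tested directly, as the Pint ASO effect minus the p53 siRNA effect. It was called negative for 25 genes and positive for 1, against 12.4% and 11.7% of all genes. By branch these were 16 of 18 sterol genes, with a median of -0.68, and 7 of 10 fatty acid genes, with a median of -0.52. Cyp51 differed by -1.11 (SE 0.11, adjusted p = 0.000117), Idi1 by -1.09 (SE 0.21, adjusted p = 0.0056), Dhcr7 by -1.08 (SE 0.10, adjusted p = 7.85e-05) and Hmgcs1 by -0.96 (SE 0.07, adjusted p = 3.62e-05). In the fatty acid branch, Scd2 differed by -0.81 (SE 0.08, adjusted p = 0.000103) and Elovl5 by -0.78 (SE 0.06, adjusted p = 3.98e-05). The effects were not shown to differ for Msmo1, Sc5d, Srebf1, Insig2, Fasn, Acaca and Me1 (adjusted p = 0.123 to 0.92). For Fasn the difference was -0.07 (SE 0.07), both changes being positive. Scap was the only positive one, at 0.33 (SE 0.08, adjusted p = 0.0203), and this was lost without control siRNA replicate 3, p53 siRNA replicate 3 or control ASO replicate 2 (adjusted p = 0.0516, 0.0517 and 0.0668). That of Ebp was lost without control ASO replicate 1 (adjusted p = 0.0688).

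The strength of these calls depended on how the spread was estimated. In the ASO arm fitted without the siRNA arrays, the Pint ASO calls held for 3 sterol genes, Hmgcs1, Fdft1 and Dhcr7, and for 3 fatty acid genes, Scd1, Scd2 and Fads2. Of all 16147 genes tested, that fit called 884 lower and 670 higher. A stricter rule was B (the log odds of a change) over 3. The study combined this threshold with log fold-change cut-offs, after a filter in each condition, and neither was part of the rule here. By B over 3, 8 sterol and 3 fatty acid genes were higher with p53 siRNA, against 5.65% of all genes past that rule in either direction. With Pint ASO 1 sterol gene, Hmgcs1, and 3 fatty acid genes, Scd1, Scd2 and Fads2, were lower, against 4.53% of all genes. The order of the branches by share of genes thus reversed with Pint ASO in both. Under B over 3 the shares were 1 of 18 sterol and 3 of 10 fatty acid genes. In the ASO arm fitted alone they were 3 of 18 and 3 of 10.

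The controls were also compared with each other. Of the 33 genes, Ebp alone was called between control ASO and control siRNA, and was lower in control ASO by 0.29 on the log2 scale (SE 0.06, adjusted p = 0.0268), against 2.14% of all genes called lower and 2.67% called higher there. Of all genes called, 55.5% were higher in control ASO, and 67% after median centring. The Ebp call stood in 6 of 11 fits that left out 1 array, being lost without any 1 of the 5 control arrays (adjusted p = 0.0506 to 0.117). The sterol branch had a median of -0.09 and the fatty acid branch of -0.02 in this comparison.

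Promoter windows, from 250 bases before to 50 bases after each start site, were taken from RefSeq (mouse build GRCm38.p6) and were at hand for 27 of the 34 genes. The windows below belong to genes called higher with p53 siRNA and lower with Pint ASO. Neither call of Idi1 was firm, and the elongase genes lost their Pint ASO calls without single arrays. The genes shown are Hmgcs1, Idi1 and Cyp51 of the sterol branch and the elongase genes Elovl5 and Elovl6. Capitals mark TCACNCCAC, a form of the sterol regulatory element that SREBPs bind, and CCAAT, the box bound by NF-Y, a frequent partner of SREBPs, each on either strand.
Hmgcs1, chr13:119690101-119690400, plus strand: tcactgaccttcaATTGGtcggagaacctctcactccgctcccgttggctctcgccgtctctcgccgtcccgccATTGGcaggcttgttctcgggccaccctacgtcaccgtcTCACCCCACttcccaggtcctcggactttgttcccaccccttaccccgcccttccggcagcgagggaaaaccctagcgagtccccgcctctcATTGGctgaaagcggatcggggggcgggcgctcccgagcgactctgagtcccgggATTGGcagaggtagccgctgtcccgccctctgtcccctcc
Idi1, chr13:8885356-8885655, plus strand: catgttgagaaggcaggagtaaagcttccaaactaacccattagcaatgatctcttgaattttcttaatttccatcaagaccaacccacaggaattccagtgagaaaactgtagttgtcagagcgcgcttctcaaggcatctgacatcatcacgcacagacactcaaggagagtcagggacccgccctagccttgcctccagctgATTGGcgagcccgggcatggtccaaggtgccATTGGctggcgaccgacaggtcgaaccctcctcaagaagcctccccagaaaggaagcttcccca
Cyp51, chr5:4104648-4104947, minus strand: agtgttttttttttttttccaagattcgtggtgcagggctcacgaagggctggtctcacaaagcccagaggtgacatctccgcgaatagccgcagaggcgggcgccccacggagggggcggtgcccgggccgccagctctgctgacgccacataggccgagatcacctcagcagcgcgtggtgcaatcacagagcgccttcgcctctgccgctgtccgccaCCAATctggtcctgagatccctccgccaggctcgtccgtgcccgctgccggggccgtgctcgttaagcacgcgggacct
Elovl5, chr9:77917115-77917414, plus strand: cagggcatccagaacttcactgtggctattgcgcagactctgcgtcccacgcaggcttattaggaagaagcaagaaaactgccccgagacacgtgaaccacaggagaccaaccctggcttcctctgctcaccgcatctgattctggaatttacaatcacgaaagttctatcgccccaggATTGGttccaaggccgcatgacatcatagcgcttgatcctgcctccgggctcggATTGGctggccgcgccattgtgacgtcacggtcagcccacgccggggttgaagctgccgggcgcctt
Elovl6, chr3:129532136-129532435, plus strand: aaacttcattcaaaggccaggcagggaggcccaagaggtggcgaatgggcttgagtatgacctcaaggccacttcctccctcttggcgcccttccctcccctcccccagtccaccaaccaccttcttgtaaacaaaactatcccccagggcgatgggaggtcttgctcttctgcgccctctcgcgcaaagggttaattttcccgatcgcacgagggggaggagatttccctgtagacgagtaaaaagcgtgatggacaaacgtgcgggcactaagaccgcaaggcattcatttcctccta

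Of all members with a window, Hmgcs1 alone held TCACNCCAC, as TCACCCCAC with its first base 137 bases before the start site, which is 1 of 27 genes (3.7%) against 1.48% of the 12702 tested genes with a window. CCAAT was in 14 of 15 sterol genes (93.3%), 4 of 5 regulators (80%) and 4 of 7 fatty acid genes (57.1%), against 41.5% of tested genes. GGGCGG, the box of Sp1, was in 14 of 15 sterol genes, 5 of 5 regulators and 3 of 7 fatty acid genes, against 62.1% of tested genes. CACGTG, an E-box, was in 6 of the 27 (22.2%), against 10.8%. Both strands were searched, a gene counted when any of its windows held the motif, and matches of different motifs overlapped in 0 of these windows. A match is a description of the letters and not evidence of binding.

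The other genes of these pathways were taken from lists made by pathway. The first 2 lists are short, so their calls are single values and not a result about the lists. Over all genes, 10.6% were called in each direction with p53 siRNA, and 11.3% higher and 13.9% lower with Pint ASO. Of 8 measured genes further along or beside the sterol pathway, Stard5, another sterol carrier, fell with p53 siRNA (-0.45, adjusted p = 4.51e-05). With Pint ASO the acetyl-CoA synthetase gene Acss2 and the cytochrome b5 reductase gene Cyb5r3 fell (-0.49 and -0.22) and the acetoacetyl-CoA synthetase gene Aacs rose (0.18). Of 9 genes for the transport, cleavage and degradation of the SREBP machinery, Sec24a, a COPII coat subunit, and the ubiquitin ligase gene Rnf139 fell with p53 siRNA (-0.28 and -0.18). With Pint ASO the COPII gene Sec23a fell (-0.31), which was also lower in control ASO than in control siRNA (-0.24), and Paqr3 and Spring1 rose (0.43 and 0.36), both of which code for Golgi proteins that act on SCAP or SREBP cleavage. No gene of these 2 lists was called higher with p53 siRNA and lower with Pint ASO, against 3.28% of all genes. In lists this short, that is no difference from all genes.

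Of 12 measured genes of cholesterol export and the liver X receptor (LXR) response, 6 fell with Pint ASO, against 13.9% of all genes. With p53 siRNA 3 rose and 2 fell, against 10.6% of all genes in each direction, which is a small difference for 12 genes. Abca1, the cholesterol exporter, fell in both knockdowns, by 0.47 with p53 siRNA (adjusted p = 0.000439) and by 0.65 with Pint ASO (adjusted p = 0.000185), and so did Cyp27a1, the sterol 27-hydroxylase, by 0.62 and 0.35. Ch25h, the cholesterol 25-hydroxylase, rose with p53 siRNA (0.36) and fell with Pint ASO (-0.57, adjusted p = 0.000549), as did the LXR-induced ubiquitin ligase gene Mylip (0.47 and -0.30). Npc1, which exports cholesterol from lysosomes, rose by 0.17 with p53 siRNA, and its partner Npc2 fell by 0.49 with Pint ASO.

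Of 19 measured genes listed under fatty acid oxidation, 13 fell with Pint ASO (median -0.27), against 13.9% of all genes. With p53 siRNA 7 fell and 12 did not pass the test (median -0.10, up to 0.14), against 10.6% of all genes called lower. None rose in either knockdown. Acadvl, the very long-chain acyl-CoA dehydrogenase, fell by 0.46 in each (adjusted p = 6.30e-05 and 0.000186). With p53 siRNA Cpt1c, a gene of the carnitine palmitoyltransferase family, and the carnitine carrier gene Slc25a20 fell by 0.62 and 0.38. With Pint ASO the enoyl-CoA isomerase gene Eci2 and the dienoyl-CoA reductase gene Decr1 fell by 0.62 and 0.55.

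Of 25 tested genes of further fatty acid and lipid synthesis, 4 rose and 1 fell with p53 siRNA, against 10.6% of all genes in each direction. With Pint ASO 4 rose and 2 fell, against 11.3% and 13.9%. These counts are near those of all genes, so the genes named next are single values and not a result about the list. Lpin1, a phosphatidate phosphatase, fell by 1.25 with p53 siRNA (SE 0.05, adjusted p = 7.73e-07) and by 0.47 with Pint ASO (adjusted p = 0.000303). Dgat2, an enzyme of triglyceride synthesis, rose by 0.29 with p53 siRNA, and Slc25a1, the mitochondrial citrate carrier, fell by 0.24 with Pint ASO. The elongase gene Elovl3 rose in both (0.40 and 1.10) and Elovl4 with Pint ASO (0.67), but the ASO control exceeded the siRNA control for both genes as well (by 0.99 and 0.46). Fads3 rose in both (0.21 and 0.33).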

How the data were processed

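The authors deposited log2 values per probe set, made from Affymetrix whole-transcript arrays (300 ng of RNA each) by RMA (background correction, normalization between arrays, summarization), version not given in the sources used here. Normalization between arrays can remove a shift shared by all genes. Of 34760 probe sets, 21640 carry 1 symbol and 1321 several, which name no gene here. Probe sets were tested if 2 or more arrays of any group exceeded 6 (64 before logs), with limma 3.58.1 in R 4.3.3 over all 4 groups, with Benjamini-Hochberg adjustment over all probe sets. A gene is its probe set with the highest mean over all arrays. Summaries and motif searches used Python 3.11.15. The fit was tested on simulated data.

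Groups came from the labels, which do not state separate cultures, so that p-values reflect only how far these arrays differ among themselves. The number of arrays limits the precision. The members and lists were chosen with earlier results of these data known. All members are named, and of each list up to 3 called genes per direction and knockdown. Some related genes are not analysed here.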

Additional observations from a re-analysis of the deposited data

Results flagged for a closer look

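The Pint ASO effect differed from the p53 siRNA effect by the direct test of the difference (limma, adjusted p under 0.05) for 26 members. Beyond the values given above for Cyp51, Idi1, Dhcr7, Hmgcs1, Scd2 and Elovl5 (-1.11, -1.09, -1.08, -0.96, -0.81 and -0.78), the differences in log2 fold change in the sterol branch were -0.88 for Fdft1, -0.85 for Stard4, -0.82 for Tm7sf2, -0.79 for Fdps, -0.72 for Nsdhl, -0.65 for Sqle, -0.63 for Mvk, -0.56 for Pmvk and for Hsd17b7, -0.55 for Mvd, -0.45 for Lss and -0.32 for Ebp. In the fatty acid branch they were -0.74 for Elovl6, -0.66 for Scd1, -0.52 for Fads1 and for Fads2 and -0.33 for Acly. Among the regulators they were -0.58 for Insig1, -0.48 for Srebf2 and 0.33 for Scap. Mvd, Lss, Sqle, Pmvk, Insig1, Scap, Fads1 and Acly were called with p53 siRNA and for this difference, but not with Pint ASO alone, and Ebp and Fads2 with Pint ASO and for this difference, but not with p53 siRNA alone.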

How the results depend on the processing

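No sign of a called member changed under any alternative. Calls of fatty acid genes with p53 siRNA (8) numbered 5 to 8 when 1 array was left out, with 5 without control siRNA replicate 1 or 2 or p53 siRNA replicate 2. Calls of sterol genes (12) and fatty acid genes (5) with Pint ASO numbered 9 to 11 and 3 to 5, those between the controls (1) 0 to 2, and those of all genes between the controls (776) 189 to 723 (307, 411 and 297 without control siRNA replicates 1, 2 and 3, and 460 without control ASO replicate 2), with 189 without control ASO replicate 1, which also gave the 3 fatty acid calls. With the ASO arm fitted alone, 3 sterol and 3 fatty acid genes were called with Pint ASO, as were 1554 of all genes in place of 4066. At B over 3, calls were 8 and 3 with p53 siRNA, 1 and 3 with Pint ASO, 14 for the difference and 0 between the controls. A mean-variance trend gave 8 fatty acid calls with Pint ASO, adding Acly (adjusted p = 0.046) and Fads1 (0.0265) as lower and Fasn (0.0392) as higher, and 3 between the controls. Between the controls, a filter in each group gave 2 and median centring 0, and median centring moved the fatty acid median with p53 siRNA to 0.271.

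Same-numbered siRNA arrays did not deviate together (correlations of -0.284, -0.181 and -0.0371). The 2 ASO pairs gave -0.0463 and -0.420 by title and 0.420 and 0.375 by description. The 2 control ASO arrays deviate from their mean by equal and opposite amounts, so swapping them only turns the sign. These ASO values therefore cannot decide whether the ASO arrays were paired. The main fit did not use the numbers as pairs. With a replicate block by title number, 4 fatty acid genes were called with p53 siRNA, 3 sterol and 3 fatty acid genes with Pint ASO and 0 members between the controls. By description number these were 5, 6, 3 and 0. Over all genes, the title block called 1811 with p53 siRNA (3433 without it), 1110 with Pint ASO, 1585 for the difference (3892 without it) and 4 between the controls, and the description block 2153, 2477 and 30 for the last 3 of these. The counts over all genes, and the blocks for the difference and the controls, were added after seeing the data. With 2 control ASO arrays, the Pint ASO calls rest on the spread of the other groups.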
